A study of Mus musculus with 90 samples.

Results

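The genes described here are 10 transcripts of the response to low oxygen and of sugar breakdown: Hk2, Aldoa, Pgk1, Ldha, Slc2a1, Car9, Vegfa, Ndrg1, Bnip3 and Egln3. They were taken by name, and all 10 had a probe set on the Affymetrix mouse expression arrays of the study. Together they hold 24 of the 34945 probe sets with 1 gene symbol, and each gene is represented by its brightest probe set, 1 of 18193 genes in all.

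The study ran 90 arrays on RNA of subcutaneous melanoma allografts. Every group carries the same genotype, an Hgf transgene with the R24C change in both copies of Cdk4 (Hgftg;Cdk4R24C/R24C), in the B6.cBrd strain; the age of the mice and the promoter of the transgene are not given in the sources used here. PBS tumours (7 arrays) received the vehicle at 10 ml/kg, and IgG tumours (22, labelled Normal IgG) the control antibody, mouse IgG1 with the D265A change, at 10 mg/kg. The other groups received an antibody against PD-L1 of the same format at 10 mg/kg and were sorted by how the tumour behaved, so the outcome defines the group. The sample labels give 10 mg/kg throughout, whereas the series description names 10 or 20 mg/kg for both antibodies. Responder tumours (27) had lost at least 5% of their volume and were taken after 2 to 12 doses, while NonResponder tumours (23) kept growing and were taken at corresponding times. Relapse tumours (6) regrew, after 4 to 10 doses, from below the limit of measurement. Stabilization tumours (3) are Responders whose volume stayed the same over consecutive measurements, and GrowthDelay tumours (2) appeared only after treatment had begun. The labels do not say that each array is a separate mouse, so p-values measure the spread between these samples, which may in part be technical.

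Sample titles are numbers that form 4 ranges without overlap, referred to as title series, and the sources used here do not say what a range stands for. The larger series (53 arrays) holds 17 Responder, 14 NonResponder, 14 IgG, 3 PBS, 3 Relapse and 2 GrowthDelay tumours. The smaller (25 arrays) holds 10 Responder, 9 NonResponder, 3 Relapse and 3 Stabilization tumours, and the remaining 8 IgG and 4 PBS arrays form ranges of their own. Array medians lay between 5.71 and 5.90 on the log2 scale, and the precision is limited by the number of arrays. The 5 arrays with the lowest mean correlation with all others were Responder 21 (0.883), Responder 20 (0.904), Stabilization 1 (0.913), NonResponder 14 (0.927) and Responder 4 (0.950). Responder 21 had the highest skeletal muscle marker score of the 90 arrays (13.87), and Responder 20 and NonResponder 14 had B cell marker scores of 10.83 and 10.53. A score is the mean log2 value of a marker list. The melanocyte score, of 6 pigment cell markers, ran from 10.66 to 11.25 in IgG and from 9.25 to 11.31 in NonResponder tumours. It ran from 7.37 to 11.18 in Responder and from 7.70 to 10.95 in Stabilization tumours. Of its markers, Tyr averaged only 3.60, below every array median. In bulk tumour RNA, fewer cells of a type and less RNA per cell cannot be told apart.

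Cells sense oxygen through prolyl hydroxylases such as the product of Egln3, which mark the alpha subunit of the hypoxia-inducible factor (HIF) for destruction through the von Hippel-Lindau protein while oxygen is present. When oxygen falls, the subunit persists, pairs with Arnt and binds short DNA elements near its target genes. Those targets raise glucose uptake and glycolysis, acid handling, vessel growth and the removal of mitochondria, and solid tumours that outgrow their vessels commonly express them.

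The core of a HIF binding element reads ACGTG or GCGTG, on either strand. Both words were searched in RefSeq promoter sequences of the GRCm38.p6 build, running from 250 bases before to 50 after each transcript start, where 43.8% of 32851 entries held at least 1. Of the 10 genes, 9 were listed with 13 entries, and 11 of these entries held a match. Each of the 9 genes had at least 1 entry with a match, some out of several entries, and Ndrg1 had no entry. The stretches of 60 bases below come from 5 genes that were measured together across the same tumours and are shown for the spacing and overlap of their matches, which are in capitals. A palindrome CACGTG is 1 match on each strand with overlapping bases.
Ldha (chr7:46845715-46845774, plus strand): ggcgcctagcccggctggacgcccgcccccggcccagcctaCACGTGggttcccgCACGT
Bnip3 (chr7:138909570-138909629, minus strand): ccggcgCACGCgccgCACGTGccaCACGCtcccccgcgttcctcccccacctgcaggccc
Pgk1 (chrX:106186929-106186988, plus strand): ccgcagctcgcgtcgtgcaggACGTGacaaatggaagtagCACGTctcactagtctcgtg
Slc2a1 (chr4:119108666-119108725, plus strand): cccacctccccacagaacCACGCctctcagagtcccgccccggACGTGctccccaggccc
Car9 (chr4:43506966-43507025, plus strand): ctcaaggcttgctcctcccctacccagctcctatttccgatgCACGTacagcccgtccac
The Ldha entry shown held 7 match positions, another Ldha entry 2 and the Bnip3 entry 5. Of the 13 entries 7 held 2 or more, beside 20.6% of all entries. Pgk1 and Slc2a1 held 2 each and Car9 held 1, at position -18 from the start. A match describes letters in a window and not a bound site.

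In Responder tumours, 4 of the 10 genes rose against NonResponder tumours: Hk2, Slc2a1, Ndrg1 and Aldoa. The comparison asks how regressing tumours under the antibody differ from tumours that grew on under it. In the linear model over all 90 arrays, with group and title series as terms (limma, Benjamini-Hochberg over 18193 genes, adjusted p under 0.05), 47% of all genes were called in either direction and 17.2% were called higher, which is 3138 higher and 5414 lower. The share of calls that were higher depended on scaling and on the genes kept: it was 18.4% with each array centred on its median and 54.4% with dim genes left out. All 10 genes had a positive difference, between 0.01 and 0.46 on the log2 scale with a median of 0.31, while the median of all genes was -0.06. Of all genes, 38.8% had a positive difference. Bnip3 and Pgk1, at 0.01 each, turned negative with median centring (-0.07 each). The 4 of 10 called stand near the 47% called among all genes, and the list was not tested against other genes.

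**Figure D1:**
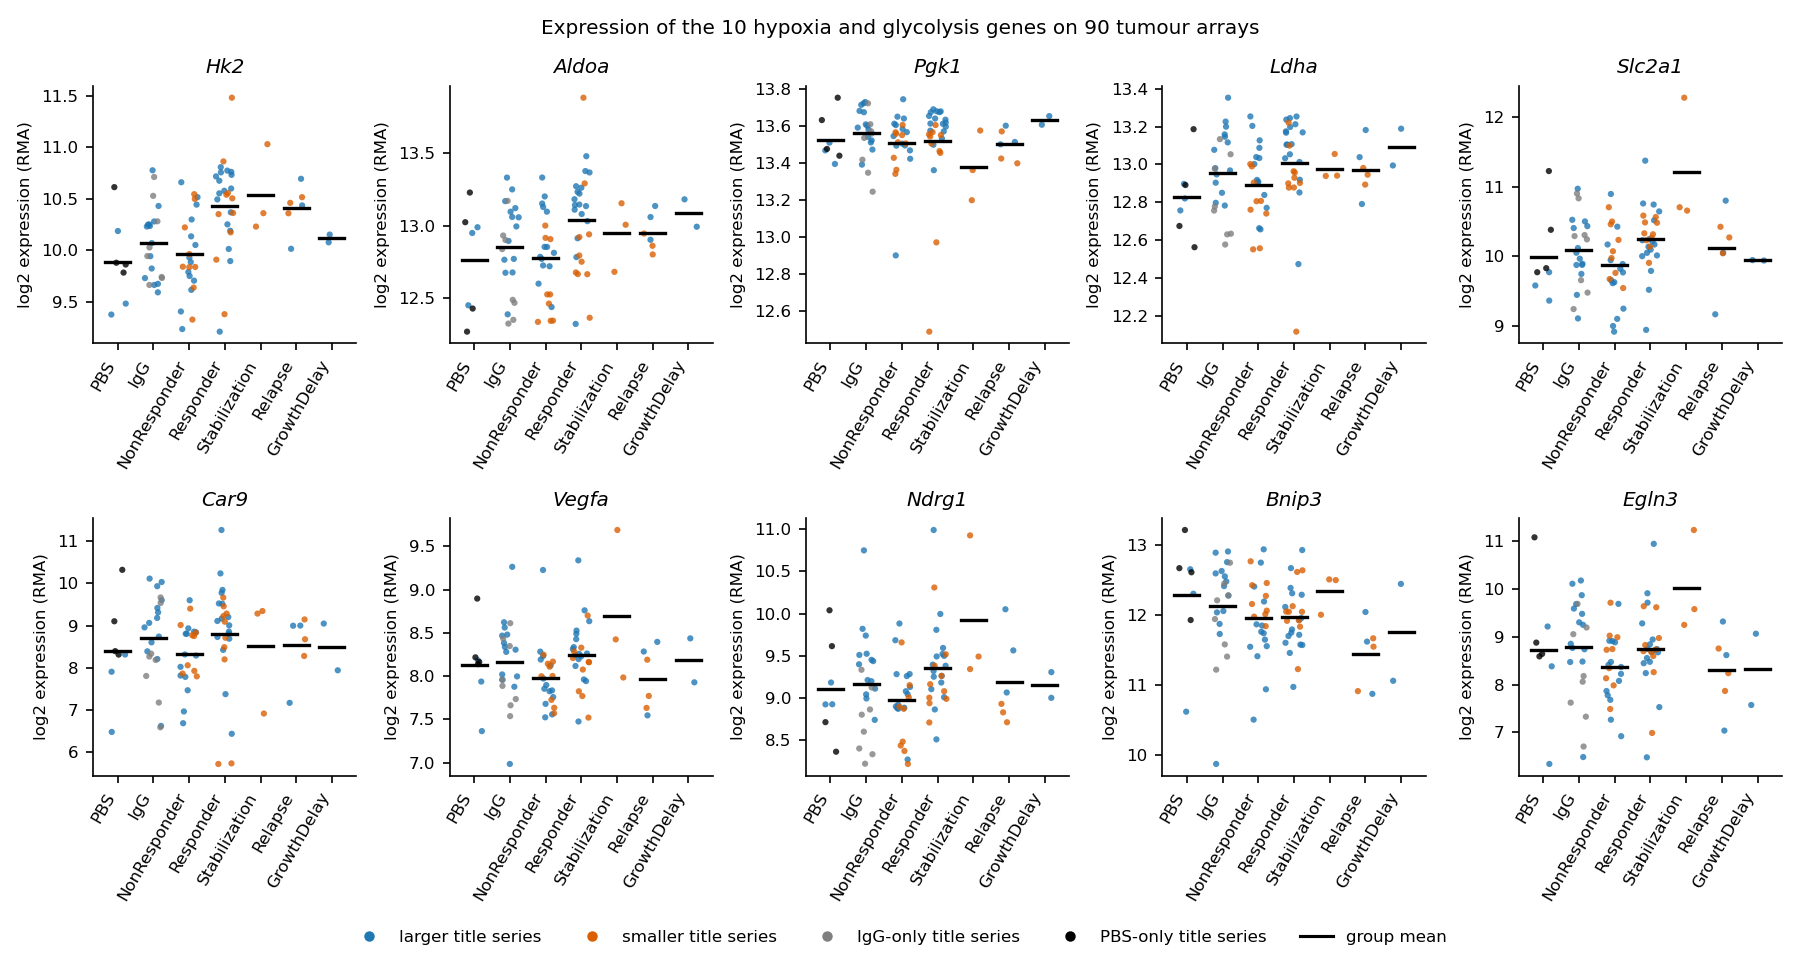
Log2 expression (vertical axes) of each gene on all 90 arrays by group (horizontal axes); points are arrays coloured by title series and bars are group means. Responder means lie above NonResponder means for every gene, by the least for Pgk1 and Bnip3, the groups overlap, and the highest Slc2a1, Vegfa and Egln3 values all belong to 1 Stabilization array.

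Glycolysis begins with hexokinase, and Hk2, which encodes the inducible hexokinase of tumours, had the clearest difference. Its log2 level ran from 9.24 to 10.66 in NonResponder tumours, with a median of 9.89, and from 9.21 to 11.48 in Responder tumours, with a median of 10.54. The ranges overlapped almost completely at the low end, yet 23 of 27 Responder arrays lay above the NonResponder mean of their own title series. The difference was 0.46 ± 0.11 (SE), a 1.38-fold higher level, with a limma adjusted p of 0.00158. It was much the same in both series, 0.47 ± 0.15 in the larger and 0.44 ± 0.19 in the smaller. In the other groups Hk2 ran from 9.38 to 10.61 with PBS, from 9.59 to 10.78 with IgG and from 10.01 to 10.69 at Relapse. The Stabilization arrays stood at 11.03, 10.36 and 10.23, and the GrowthDelay arrays at 10.08 and 10.15.

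Aldoa encodes the aldolase that splits fructose bisphosphate and is also the aldolase of skeletal muscle. NonResponder values ran from 12.33 to 13.33 (median 12.78) and Responder values from 12.32 to 13.88 (median 13.11). The lows of both groups coincide, and 24 of 27 Responder arrays lay above the NonResponder mean of their series. The difference was 0.26 ± 0.08, or 1.20-fold, with a limma adjusted p of 0.00977, and it was 0.23 in the larger and 0.30 in the smaller series. The highest Aldoa value of all 90 arrays, 13.88, belonged to Responder 21, the array with the highest muscle score; without the 5 arrays that stand apart the difference was 0.22 ± 0.08 (adjusted p = 0.0205). None of the 10 muscle markers was called between Responder and NonResponder tumours. All 10 were lower in Responder tumours of the larger series (median difference -0.99) and all 10 higher in the smaller (median 0.60). Aldoa and the muscle score correlated at r = 0.65 over the 25 arrays of the smaller and r = 0.06 over the 53 arrays of the larger series. The part of muscle in the Aldoa difference was not tested.

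Ldha and Pgk1, of later steps, did not pass. Pgk1, phosphoglycerate kinase, differed by 0.01 ± 0.05 (adjusted p = 0.891), with a 95% interval from -0.09 to 0.11. Its range was narrow in the larger Responder series, 13.36 to 13.69, whereas the smaller Responder series ran down to 12.49 on Responder 20. Ldha, the lactate dehydrogenase subunit that regenerates NAD from pyruvate, differed by 0.11 ± 0.06 (adjusted p = 0.0926), and its lowest value, 12.12, was on the same array. Ldha ran from 12.55 to 13.25 in NonResponder tumours (median 12.90) and up to 13.25 in Responder tumours (median 13.05), from 12.58 to 13.35 with IgG, from 12.56 to 13.19 with PBS and from 12.79 to 13.18 at Relapse. Without NonResponder 14 and Responder 20 and 21 the Ldha difference was 0.12 ± 0.05 and just passed (adjusted p = 0.0499).

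Slc2a1, the glucose transporter GLUT1, ran from 8.92 to 10.90 in NonResponder tumours (median 9.82) and from 8.94 to 11.37 in Responder tumours (median 10.23). In spite of that overlap, 24 of 27 Responder arrays lay above the NonResponder mean of their series. The difference was 0.39 ± 0.14, or 1.31-fold (limma adjusted p = 0.0225), made of 0.48 ± 0.18 in the larger and 0.23 ± 0.23 in the smaller series. With each array centred on its median it no longer passed (0.30, adjusted p = 0.0575).

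Car9 encodes a carbonic anhydrase on the cell surface, an enzyme of acid handling, and it was the most variable of the genes, with an SD of 1.02 over all arrays. In the larger series NonResponder tumours ran from 6.69 to 9.60 (median 8.30) and Responder tumours from 6.44 to 11.26 (median 9.11). In the smaller series NonResponder tumours ran from 7.80 to 9.40 (median 8.75) and Responder tumours from 5.72 to 9.66 (median 8.90). The larger series therefore differed by 0.83 ± 0.36 and the smaller by -0.13 ± 0.45, and over both the difference of 0.46 ± 0.28 did not pass (limma adjusted p = 0.163). The difference between the series, 0.96 ± 0.58, did not pass either (limma interaction, adjusted p = 0.435). Its lowest value lay on Responder 21 and its highest on Responder 4; without the 5 arrays that stand apart Car9 was called, at 0.57 ± 0.24 (adjusted p = 0.0446).

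Vegfa, the main growth factor for blood vessels, ran from 7.52 to 9.23 in NonResponder and from 7.47 to 9.34 in Responder tumours, with medians of 7.97 and 8.24. The groups overlap over nearly the whole range, and the difference of 0.26 ± 0.12 missed the threshold (limma adjusted p = 0.0595).

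Ndrg1, a stress-induced gene that is strongly raised by low oxygen, ran from 8.22 to 9.88 in NonResponder tumours (median 8.92) and from 8.51 to 10.99 in Responder tumours (median 9.26). Responder arrays reached higher, and 23 of 27 lay above the NonResponder mean of their series. The difference was 0.37 ± 0.13, or 1.29-fold (limma adjusted p = 0.0207), with 0.32 ± 0.17 in the larger and 0.45 ± 0.22 in the smaller series. It just missed the threshold with the mean of all 5 Ndrg1 probe sets (0.28, adjusted p = 0.0508) and with quantile normalization (0.32, adjusted p = 0.0522).

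Bnip3, which directs the removal of mitochondria, did not differ detectably: the difference was 0.01 ± 0.16 (adjusted p = 0.951), with a 95% interval from -0.30 to 0.33. Only 11 of 27 Responder arrays lay above the NonResponder mean of their series. Egln3, a prolyl hydroxylase that HIF itself induces, differed by 0.37 ± 0.25 (adjusted p = 0.213), with 22 of 27 Responder arrays above the NonResponder mean. Its second, dimmer probe set gave 0.59 ± 0.22 and was called (adjusted p = 0.0283 over all probe sets). Among all 24 probe sets of the 10 genes, 24 had a positive difference and 10 were called, beside 40.1% of 45037 probe sets. Probe sets of called genes disagreed too. Of 5 Ndrg1 probe sets 2 were called, with differences from 0.08 to 0.37, and the lowest of them was negative in the smaller series (-0.07). Of 3 Slc2a1 probe sets 2 were called (0.32 to 0.39). Of 5 Aldoa probe sets 4 were called and the dimmest stood at 0.02. All 5 Aldoa probe sets are of a type whose probes can share sequence with other transcripts.

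**Figure D2:**
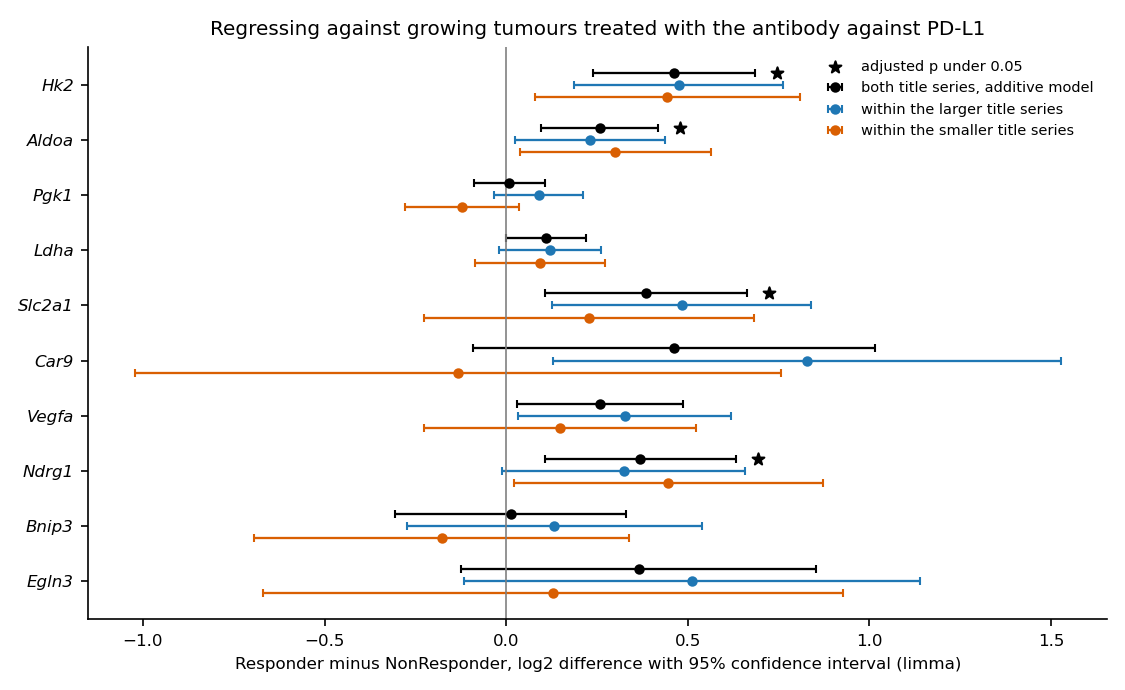
Responder minus NonResponder log2 difference (horizontal axis) of each gene with its 95% confidence interval, for both title series together (black), within the larger (blue) and within the smaller series (orange); stars mark an adjusted p under 0.05. Only the differences over both series carry stars, for Hk2, Aldoa, Slc2a1 and Ndrg1, and the Car9 values of the series lie on opposite sides of 0.

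Within a single title series, none of the 10 genes passed in the model over all 90 arrays. With the larger series fitted alone, Hk2 was called (limma adjusted p = 0.0467), beside 3.02% of all genes. With the smaller fitted alone none of the 10 was called, beside 19.1% of all genes. In the larger series all 10 differences were positive (0.09 to 0.83), beside 40.4% of all genes. There 2.63% of all genes were called in the model over all 90 arrays, and the smallest limma adjusted p of the 10 was 0.0539, for Hk2. In the smaller series 7 were positive, beside 39.5% of all genes. There 36.7% of all genes were called in the same model, and the smallest limma adjusted p of the 10 was 0.0521, again for Hk2. The interaction between group and series was called for none of the 10 and for 0% of all genes (limma), with 2418 genes at an unadjusted p under 0.05; of the 10, Pgk1 alone was under 0.05 unadjusted, at a difference between the series of 0.21 ± 0.10.

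Other genes of the pathway, which exclude the 10, were counted from lists. Among 14 measured glycolysis enzymes 7 rose and 1 fell, with a median difference of 0.25. Hk3, the hexokinase of myeloid cells, rose by 1.38 ± 0.26 (limma adjusted p = 0.000119). Pfkfb3 and Pfkfb4, whose products make the activator of phosphofructokinase, rose by 0.90 ± 0.18 and 0.56 ± 0.16 (adjusted p = 0.000251 and 0.00395). The enzyme that fell was Ldhb, the other lactate dehydrogenase subunit, at -0.35 ± 0.13 (adjusted p = 0.0242). Of 4 sugar and lactate transporter genes 1 rose, Slc2a3, by 0.49 ± 0.15 (adjusted p = 0.00819). Of 8 oxygen-sensing genes 3 rose and none fell: Hif1an, the asparagine hydroxylase of HIF, by 0.48 ± 0.12, Epas1, which encodes HIF-2 alpha, by 0.76 ± 0.20, and Egln1 by 0.25 ± 0.10. Hif1a itself differed by 0.08 ± 0.04 (adjusted p = 0.0877). Of 15 other HIF targets 4 rose and none fell, with a median of 0.23: Plin2, a lipid droplet coat protein, by 0.42 ± 0.14, Hmox1, heme oxygenase, by 0.64 ± 0.22, and the collagen prolyl hydroxylases P4ha1 by 0.23 ± 0.09 and P4ha2 by 0.47 ± 0.20. The median of all genes, -0.06, is the value to read these medians against, and 17.2% of all genes were called higher.

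Markers of other cells moved in the same comparison. Higher in Responder tumours were 8 of 8 T cell, 7 of 8 macrophage, 6 of 6 fibroblast and 5 of 6 endothelial markers, with 2 of 5 neutrophil and 1 of 5 B cell markers. Lower were 4 of 6 proliferation, 3 of 6 keratinocyte and 1 of 6 melanocyte markers. The proliferation markers Mki67 (0.26 ± 0.13) and Top2a (0.07 ± 0.10) had positive differences and were not called. No muscle, adipocyte or erythroid marker was called. Among all genes 17.2% were called higher and 29.8% lower. The T cell score ran from 5.16 to 9.89 in NonResponder and from 5.51 to 9.87 in Responder tumours, the macrophage score from 8.04 to 11.57 and from 8.15 to 11.70, and the fibroblast score from 5.98 to 12.02 and from 6.77 to 12.92. Within groups and series, across 90 arrays, Hk2 followed the endothelial score (Pearson r = 0.41, permutation p = 0.00033; Spearman rho = 0.46) but hardly the T cell score (r = -0.01) or the macrophage score (r = 0.16). Ndrg1 rose with the endothelial (r = 0.58), neutrophil (r = 0.50), macrophage (r = 0.40) and fibroblast (r = 0.36) scores. It fell with the proliferation (r = -0.47) and melanocyte (r = -0.44) scores, each past the adjusted threshold by Pearson r. By Spearman rho the macrophage, fibroblast and proliferation relations did not pass (permutation, adjusted p = 0.0576, 0.103 and 0.0981). Without the 5 arrays of lowest mean correlation, r fell to 0.19, 0.15 and -0.05 for these scores. For the endothelial, neutrophil and melanocyte scores it was 0.41, 0.34 and -0.35. Over 120 such relations 37 passed by Pearson r after adjustment. The part of these cells in the differences was not tested.

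Responder tumours and NonResponder tumours were each compared with IgG tumours directly within the larger series, and share those 14 IgG arrays. Responder tumours differed from IgG tumours by 0.37 ± 0.15 in Hk2 (limma adjusted p = 0.052) and by 0.17 ± 0.11 in Aldoa, and 14 of 17 Responder arrays lay above the IgG mean for each. Slc2a1 averaged 10.20 in Responder and 10.07 in IgG tumours, with 11 of 17 Responder arrays above the IgG mean. Ndrg1 averaged 9.42 in both groups, with 7 of 17 above, so its rise against NonResponder tumours was not seen against IgG tumours. Egln3 (-0.33 ± 0.32) and Bnip3 (-0.29 ± 0.21) lay below IgG tumours. None of the 10 was called, beside 27.3% of all genes (1980 higher and 2993 lower). The higher share of those calls was 25.4% with median centring, 29.8% with quantile normalization and 73.1% without dim genes. Hk2 alone passed with an additive title series term, beside 37.3% of all genes, and with the larger series fitted alone, beside 31.5%. It alone also passed without the 3 or 5 arrays that stand apart, beside 35.1% and 31.3% of all genes.

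In NonResponder tumours all 10 genes were lower than in IgG tumours of the larger series, by 0.06 to 0.84, and none was called. Of all genes, 46.8% had a positive difference. The 10 genes varied together from tumour to tumour, so their shared sign is not 10 separate observations. No gene of the 18193 was called (0%, limma), and 749 genes had an unadjusted p under 0.05. Egln3 had the largest difference, -0.84 ± 0.34: NonResponder values ran from 6.92 to 9.68 (median 8.29) and IgG values from 6.49 to 10.17 (median 9.27). Car9 followed at -0.78 ± 0.37, with NonResponder values from 6.69 to 9.60 and IgG values from 6.62 to 10.11. For both genes 13 of 14 NonResponder arrays lay below the IgG mean, although the ranges overlap.

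IgG tumours were higher than PBS tumours of the larger series in all 10 genes, by 0.14 to 1.44, with none called, beside 0.0055% of all genes (1 gene). A positive difference was found for 53.8% of all genes. Car9 stood at 6.48, 8.32 and 7.91 on the 3 PBS arrays and between 6.62 and 10.11 on the 14 IgG arrays, a difference of 1.44 ± 0.63. The PBS group rests on 3 arrays here. The 4 PBS arrays of their own title range had Car9 at 10.32, 9.10, 8.40 and 8.31, all but 1 of them above every PBS array of the larger series; the title ranges of PBS arrays were not tested against each other.

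Relapse and Stabilization tumours were set against the NonResponder and Responder arrays already used above. Relapse tumours, against NonResponder tumours over both series, had Hk2 higher by 0.45 ± 0.18 (limma adjusted p = 0.0633) and Bnip3 lower, at -0.54 ± 0.26 (adjusted p = 0.109). All 6 Relapse arrays lay above the NonResponder mean of their series for Hk2 and for Aldoa, and 5 of 6 lay below it for Bnip3. Bnip3 stood at 11.62, 10.87 and 12.04 in the larger and at 10.91, 11.67 and 11.55 in the smaller series. In the smaller series these 3 values lay below every NonResponder value, which ran from 11.84 to 12.77. How many of all genes separate in this way was not counted, and 13.1% of all genes were called between these groups in that series. None of the 10 genes was called, beside 20.3% of all genes (1533 higher and 2164 lower). The higher share of those calls was 10.8% with median centring, 24.7% with quantile normalization and 79.4% without dim genes. Hk2 was called without Relapse 2, whose Hk2 value of 10.01 was the lowest of the group. The all-gene count moved from 3697 to 4064 (22.3%) without Relapse 2, 1359 without Relapse 1 and 2793 without Relapse 3. It was 785 without Relapse 4, 1139 without Relapse 5 and 557 without Relapse 6. Relapse tumours also had 4 of 6 fibroblast, 4 of 8 macrophage and 3 of 8 T cell markers higher than NonResponder tumours, and the part of these cells was not tested. Set against Responder tumours, the same 6 Relapse arrays gave negative differences for all 10 genes, led by Bnip3 at -0.55 ± 0.26 and Egln3 at -0.45 ± 0.40. Of all genes, 48.7% had a positive difference. None of the 10 was called here, beside 0% of all genes (limma), with 803 genes at an unadjusted p under 0.05.

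Few genes of the pathway lists were called in Relapse against NonResponder tumours. Of 14 glycolysis enzymes 1 rose, Hk1 (0.57 ± 0.20), and 1 fell, Ldhb (-0.56 ± 0.21). Of 8 oxygen-sensing genes 1 rose, Hif1an (0.53 ± 0.20), and of 15 other HIF targets 1 fell, Ankrd37 (-0.72 ± 0.27). None of the 4 transporter genes was called. The limma adjusted p values of the called genes lay between 0.0377 and 0.0493. These counts stand beside 20.3% of all genes called, 8.43% higher and 11.9% lower, and were not tested against other genes.

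**Figure D3:**
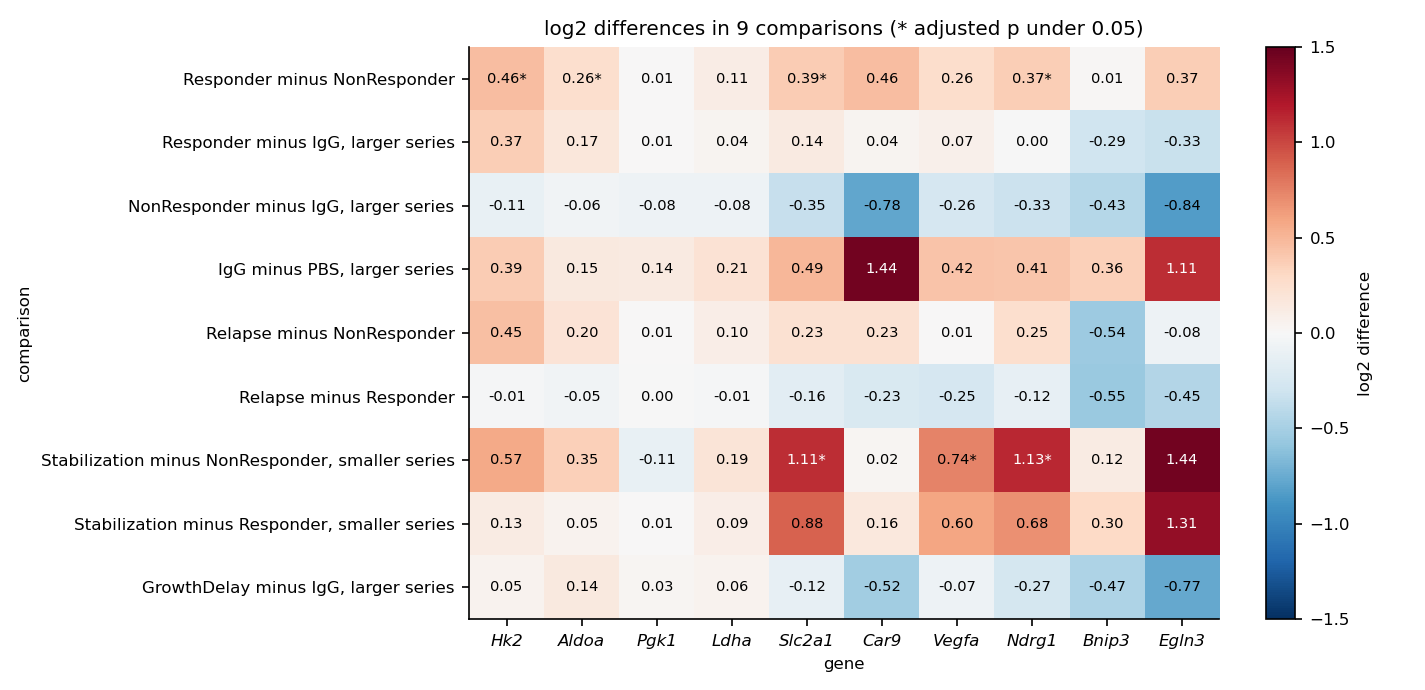
Log2 difference (colour and number) of each gene (columns) in 9 comparisons (rows), with stars for an adjusted p under 0.05. Stars appear for Hk2, Aldoa, Slc2a1 and Ndrg1 in Responder minus NonResponder and for Slc2a1, Vegfa and Ndrg1 in Stabilization minus NonResponder, and Bnip3 and Egln3 are below 0 in both Relapse comparisons.

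Stabilization tumours were higher than NonResponder tumours of the smaller series in Ndrg1 by 1.13 ± 0.32 (limma adjusted p = 0.00632), in Slc2a1 by 1.11 ± 0.34 (adjusted p = 0.0106) and in Vegfa by 0.74 ± 0.28 (adjusted p = 0.0334). These 3 of 10 calls stand beside 31.3% of all genes called and 13.3% called higher (2419 higher and 3269 lower, with a higher share of 29.2% of the calls under median centring). Egln3 had the largest difference, 1.44 ± 0.59, and missed the threshold (adjusted p = 0.0523). All 3 calls were lost with a single array: without Stabilization 1 none of the 10 was called, and the number of genes called fell from 5688 to 1. With all 5 arrays that stand apart left out, Stabilization 1 among them, none of the 10 was called either, beside 1006 of all genes (5.53%).

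The values show that array apart. Slc2a1 stood at 12.28 on Stabilization 1 and at 10.70 and 10.66 on the other arrays, beside 9.54 to 10.70 in NonResponder tumours of the series. Ndrg1 stood at 10.93, 9.49 and 9.34, beside 8.22 to 9.66. Vegfa stood at 9.69, 7.98 and 8.42, beside 7.57 to 8.25. Egln3 stood at 11.22, 9.57 and 9.24, beside 7.49 to 9.71. For each of these genes all 3 Stabilization arrays lay above the NonResponder mean, and apart from Stabilization 1 they overlap the NonResponder range, save for the Vegfa value of 8.42. On the same array Car9 was low, at 6.92, against 9.29 and 9.35 on the others. Without Stabilization 1 the differences were 0.63 ± 0.36 for Ndrg1, 0.58 ± 0.38 for Slc2a1, 0.25 ± 0.31 for Vegfa and 0.84 ± 0.68 for Egln3.

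**Figure D4:**
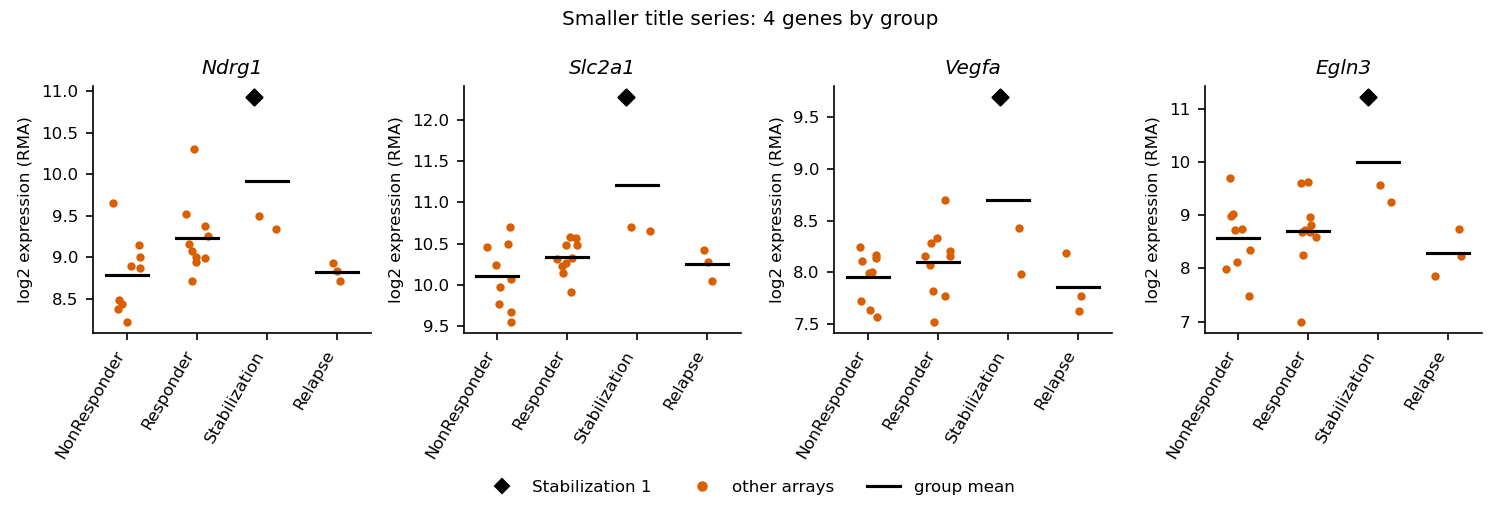
Log2 expression (vertical axes) of Ndrg1, Slc2a1, Vegfa and Egln3 by group (horizontal axes) in the smaller title series; points are arrays, bars are group means and the black diamond is Stabilization 1. The diamond is the highest value of each gene in the series, at 10.93, 12.28, 9.69 and 11.22.

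Other cells' markers moved strongly in this comparison as well: 7 of 8 T cell, 7 of 8 macrophage, 4 of 5 neutrophil, 4 of 6 fibroblast and 4 of 6 endothelial markers were higher, and 5 of 6 melanocyte and 4 of 6 proliferation markers were lower. Of the pathway lists, 3 of 14 glycolysis enzymes rose and 1 fell, led by Pfkfb3 at 2.05 ± 0.42, Pfkfb4 at 1.65 ± 0.36 and Hk3 at 2.33 ± 0.60. Of 8 oxygen-sensing genes 2 rose, Epas1 by 1.86 ± 0.47 and Hif1a by 0.39 ± 0.10, and of 15 other HIF targets 6 rose, led by Plin2 at 1.37 ± 0.34, P4ha1 at 0.79 ± 0.21 and P4ha2 at 1.69 ± 0.47. Of the transporters Slc16a1, which carries lactate, fell, at -0.76 ± 0.21. All these counts stand beside the 31.3% of all genes called and the 13.3% called higher, and they were not tested against other genes. Without Stabilization 1 the whole comparison kept 1 called gene. With all 5 arrays that stand apart left out, Stabilization 1 among them, it kept 1006 (5.53%). The listed genes were not recounted in either setting, and the part of the other cells was not tested. Against Responder tumours of the series none of the 10 was called, beside 0.11% of all genes (20), with Egln3 at 1.31 ± 0.58 and Slc2a1 at 0.88 ± 0.33.

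The 14 IgG arrays above also serve the remaining comparison. GrowthDelay tumours, with only 2 arrays, differed from IgG tumours of the larger series by -0.77 ± 0.67 in Egln3 and -0.52 ± 0.75 in Car9 and by 0.14 ± 0.22 in Aldoa. None of the 10 was called, beside 0% of all genes (limma), with 989 genes at an unadjusted p under 0.05.

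Ordered by group mean over all title series together, Stabilization was highest for 6 genes (Hk2, Slc2a1, Ndrg1, Vegfa, Bnip3 and Egln3), GrowthDelay for Aldoa, Ldha and Pgk1, and Responder for Car9. NonResponder was lowest for Car9, Slc2a1 and Ndrg1, PBS for Hk2, Aldoa and Ldha, Relapse for Vegfa, Bnip3 and Egln3, and Stabilization for Pgk1. This order mixes title series: within the larger series alone PBS was lowest for 9 genes, Car9, Slc2a1 and Ndrg1 among them, and Relapse for Bnip3. Of 60 steps between neighbouring groups 3 exceeded the SD of both groups: Stabilization over Responder for Slc2a1 (0.96), Stabilization over IgG for Egln3 (1.24) and Relapse over GrowthDelay for Hk2 (0.30). Counting steps over the smaller of both SDs gave 9, and the remaining steps were within the spread of either neighbour.

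The 10 genes varied together from tumour to tumour. After the mean of each group and series was removed, 43 of 45 pairs correlated positively over 90 arrays, with a median Pearson r of 0.59, and 42 passed by Pearson r and 42 by Spearman rho, 41 of them by both (permutation within group and series, adjusted over 45 pairs). The tightest pairs were Hk2 with Aldoa (r = 0.87, rho = 0.84), Slc2a1 with Vegfa (r = 0.84, rho = 0.81) and Bnip3 with Egln3 (r = 0.83, rho = 0.79). Each had a permutation p of 1e-05, the smallest these permutations can give, and an adjusted p of 1.45e-05. Without the 2 arrays farthest from the median of the first gene, r was 0.83, 0.81 and 0.80. The genes of a pair were read on the same arrays, so array quality and tissue mixture are common to both.

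Hk2 and Aldoa went with Ldha (r = 0.79 and 0.78), while Bnip3 followed neither Hk2 (r = -0.05, permutation p = 0.62, rho = -0.13) nor Aldoa (r = -0.04, permutation p = 0.69, rho = -0.07). Slc2a1, Vegfa, Ndrg1 and Egln3 formed a middle set, with r between 0.67 and 0.84. The first principal component of the 10 residual profiles took 59.8% of their variance with loadings of one sign, and the second 18.7%, with Hk2 and Aldoa at -0.49 each against Bnip3 at 0.53 and Egln3 at 0.31. Ldha and Vegfa followed the mean of the remaining genes most closely (r = 0.85 each) and Bnip3 least (r = 0.51).

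Both title series shared most of this. Of 45 pairs 38 were positive in both, with a median r of 0.60 in the larger series, where 39 pairs passed, and 0.48 in the smaller, where 20 passed on 25 arrays. Of the other 7 pairs, 4 involve Car9 and the rest are Ndrg1 with Pgk1 (0.22 in the larger and -0.21 in the smaller series), Hk2 with Bnip3 and Aldoa with Bnip3. For Car9, r with Vegfa was 0.86 in the larger and -0.07 in the smaller series, and with Ndrg1 0.70 and -0.31, so the r over all arrays (0.60 with permutation p = 1e-05 and 0.41 with permutation p = 0.00028) does not hold in the smaller series. Its r with Pgk1 was 0.63 and 0.89. Without the 5 arrays that stand apart, Car9 correlated with Vegfa at 0.85 and with Ndrg1 at 0.74, and the median over all pairs rose to 0.67.

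**Figure D5:**
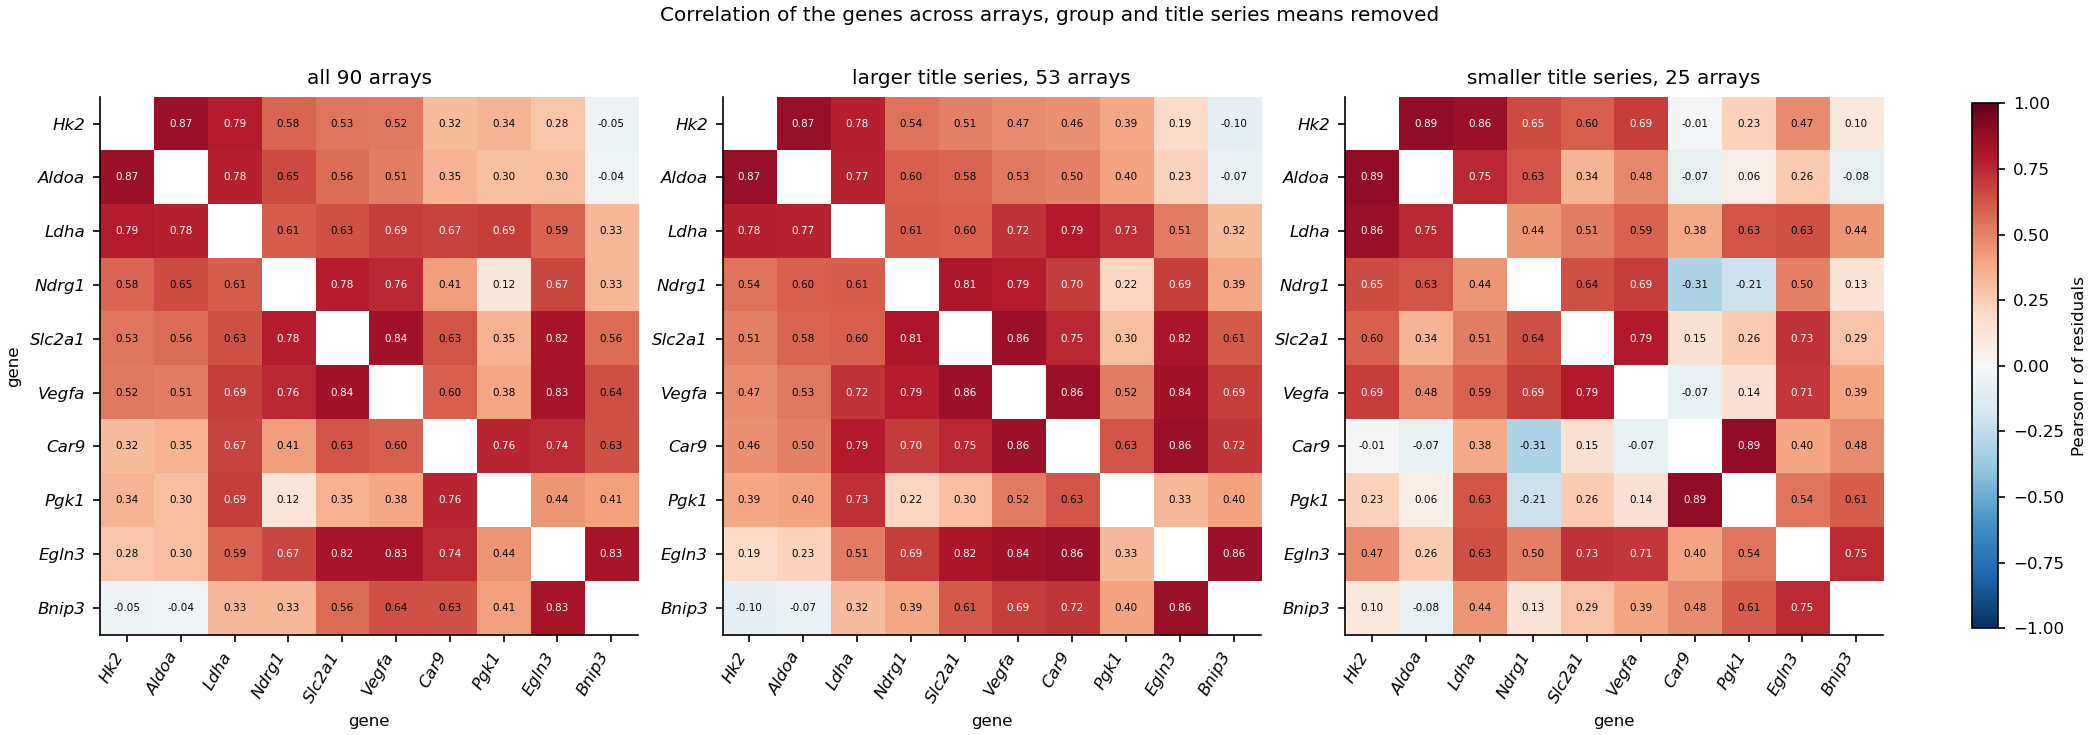
Pearson r (colour and number) between each pair of genes (rows and columns) after removal of group and title series means, over 90 arrays, 53 arrays of the larger and 25 of the smaller series. Hk2 and Aldoa are near 0 with Bnip3 in every panel (-0.10 to 0.10), and Car9 loses its correlation with Vegfa and Ndrg1 in the smaller series.

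Over the same residual profiles, the genes outside the 10 most like their mean, across 90 arrays, were Ero1a (r = 0.92), Mt2 (0.88), Tpi1 (0.88), Egln1 (0.87), Mt1 (0.87), P4ha1 (0.85), Bhlhe40 (0.84), Apln (0.83), Ndufa4l2 (0.82) and Pdk1 (0.82). Ero1a encodes an oxidase of the endoplasmic reticulum, Tpi1 triose phosphate isomerase, Mt1 and Mt2 metallothioneins and Apln a peptide ligand of vessels. For single genes the nearest was Pkm for Hk2 (0.88), Pgm1 for Aldoa (0.91), Tpi1 for Ldha (0.92), Ak4 for Pgk1 (0.88), P4ha2 for Ndrg1 (0.83) and Aire for Car9 (0.86). Adm, which encodes the vessel-widening peptide adrenomedullin, was nearest to both Bnip3 (0.87) and Egln3 (0.88). Slc2a1 and Vegfa were each other's nearest. These are descriptions of likeness over arrays.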

How the data were processed

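RNA of 90 tumour samples was amplified, labelled with biotin and hybridised to 1 array each. The authors deposited log2 expression values normalized with RMA, and limma is also named, per the submitters' processing notes. Versions and the set of arrays normalized together are not given in the sources used here. Probe sets were named through the platform annotation: of 45101 probe sets, 64 controls were left out, and each of the 18193 genes with a probe set of its own symbol took the one with the highest mean.

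Differences and SEs come from limma 3.58.1 in R 4.3.3 (lmFit, eBayes, two-sided, Benjamini-Hochberg over all genes, threshold 0.05), always on all 90 arrays. Comparisons present in both title series used group and title series as additive terms. Comparisons within 1 series, and the interaction, used a mean for each group and series, so means come from that series alone while the spread is shared. Levels of different probe sets were not compared. Correlations used residuals from group and series means with 100000 permutations within group and series (Python 3.11.15, numpy 2.4.6). Promoters were matched by symbol. The fits were tested on simulated data. The genes, lists and comparisons, and the 3 arrays left out as a set, were chosen with earlier results of these data known. The rule for named genes took all 10 genes in every comparison, up to 3 list members with the smallest p in comparisons with a call among the 10, the 10 genes most like the mean of the 10, and the 1 most like each; Ldhb, P4ha2 and Hif1a in Responder against NonResponder and the list members named for Relapse were added after their values were seen. The alternatives were another choice of probe set, median centring, quantile normalization, a filter on dim genes, leaving out 3 or 5 arrays, array weights, other uses of the title series, and leaving out single arrays. Array weights used limma's gene-by-gene method, because its default method did not converge; this was decided after the files had been read and before any result of either method was looked at.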

Additional observations from a re-analysis of the deposited data

Results flagged for a closer look

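In 60 tests, of 10 genes in 6 sets of 4 to 10 arrays (all PBS arrays, all Relapse arrays, and the PBS and IgG arrays of their own title ranges and the Responder and NonResponder arrays of the smaller series), 6 single values lay far from the rest of their set by Dixon's ratio; chance gives about 1 in 20. In the PBS arrays of their own title range, PBS 5 had Hk2 at 10.6126 against a mean of 9.84 ± 0.05 (SD, n = 3) on the others, and PBS 4 had Vegfa at 8.89542 against 8.17 ± 0.04 and Egln3 at 11.0691 against 8.70 ± 0.15. In the Responder arrays of the smaller series, Responder 21 had Ndrg1 at 10.3095 against 9.12 ± 0.25 (SD, n = 9), and Responder 20 had Ldha at 12.1156 against 12.97 ± 0.12 and Egln3 at 6.98965 against 8.89 ± 0.46. Responder 20 and 21 are among the 5 arrays of lowest mean correlation with the others, and Responder 21 had the highest skeletal muscle score, 13.87.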

How the results depend on the processing

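Every comparison was rerun under 7 alternatives, with other uses of the title series and single arrays left out in turn where groups were small. Of the recomputed counts among the 10 genes 97 stayed within 1.5 times of the count reported and 20 did not. Counts of 0 that stayed 0 are among the 97, some of them in comparisons that called no gene at all. No paired analysis was possible because the labels give no replicate numbers shared between groups. Percentages in brackets below are the share of all genes called in the same setting. Responder against NonResponder called 4 genes (47%), 8 with array weights (61.3%), 1 (Hk2) with the larger series fitted alone (3.02%) and 0 with the smaller fitted alone (19.1%). Car9 reversed to -0.13 with the smaller series alone, Pgk1 to -0.074 with median centring and -0.12 with the smaller series alone, and Bnip3 to -0.070 and -0.18 under the same settings and -0.030 with array weights. Responder against IgG called 0 (27.3%), but 1 without the 3 arrays rich in other tissues (35.1%) and without 5 arrays (31.3%). It also called 1 with the larger series alone (31.5%) and with an additive term (37.3%), and 3 with array weights (61.8%). IgG against PBS called 0 (0.0055%), and 2 with array weights (5.44%). Relapse against NonResponder called 0 (20.3%), but 1 with median centring (40.4%), without 3 (38.7%) or 5 arrays (41.3%) and with the smaller series alone (2.98%). It called 3 with array weights (57.4%), and 0 to 1 with single Relapse arrays left out. Stabilization against NonResponder called 3 (31.3%), but 0 without 5 arrays (5.53%), 6 with array weights (63.6%) and 0 to 4 with single Stabilization arrays left out. Stabilization against Responder called 0 (0.11%), but 2 with array weights (41.6%) and 0 to 1 with single arrays left out. Pairs of genes called fell from 42 to 20 within the smaller series, which has fewer arrays; leaving out 5 arrays, an alternative for the pairs added after the data were seen, gave 42.

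Counts over all genes also moved. The filter on dim genes tests fewer genes, so its counts fell while the share called was 48.3% against 47% for Responder against NonResponder, 24.1% against 27.3% for Responder against IgG and 17.1% against 20.3% for Relapse against NonResponder. For Responder against NonResponder 8552 became 4398 with dim genes left out, 550 with the larger and 3467 with the smaller series alone. For Responder against IgG 4973 became 2823 with quantile normalization, 2196 without dim genes and 11246 with array weights. For Relapse against NonResponder 3697 ranged from 0 with the larger series alone to 10441 with array weights, and was 7349 with median centring, which moved the median of all genes from -0.06 to -0.18. For Stabilization against NonResponder 5688 became 1 without Stabilization 1, 2060 without Stabilization 2, 1006 without 5 arrays, 2480 with the smaller series alone and 11563 with array weights; against Responder 20 ranged from 0 to 7563. IgG against PBS went from 1 to 989 with array weights. GrowthDelay against IgG went from 0 to 56 without GrowthDelay 1. Apart from the dim genes and the smaller number of arrays in series fitted alone, the cause was not tested. Array weights used the gene-by-gene method, since the default did not converge.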
